A study of Mus musculus with 12 samples.

Results

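The genes described here encode the proteasome, the protease complex that degrades ubiquitin-tagged proteins, in sorted mouse prostate epithelium after castration. Members were all genes with a symbol of the form Psma, Psmb, Psmc, Psmd, Psme, Psmf or Psmg followed by a number, each represented by the probe set of highest mean signal among those annotated to that gene alone. This gave 49 of the 18193 genes with such a probe set, of which 47 passed the filter on low signal that left 14645 genes to test. Psma8, a testis form of an alpha subunit, and Psmb11, a thymus form of a beta subunit, did not pass: their signals were 1.59 to 39.8 and 2.01 to 43.7 over the 12 arrays. The only probe set naming Psme2, the partner of Psme1, also names a second gene and was not used here.

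RNA was measured on Affymetrix arrays in 4 groups of male C57BL/6 mice with 3 arrays each, from 3 sets of animals given as biological replicates, which were 8 weeks old when they were castrated or left intact. Cells were sorted from dissociated prostates 4 weeks after castration, with castrated and intact animals paired by set; whether an array holds 1 animal or a pool was not given. The groups were castrated luminal and intact luminal cells, sorted as Lin- CD49f(lo) EpCAM+, and castrated basal and intact basal cells, sorted as Lin- CD49f(hi) EpCAM+. The sort selects the cells present at that time by surface protein. Fewer cells of a type and less RNA per cell cannot be told apart in such sorted populations.

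The proteasome is built from a barrel-shaped 20S core, whose outer rings are alpha subunits and whose inner rings are beta subunits, and from caps that open it. The 19S cap recognises and unfolds ubiquitin-tagged proteins with a ring of ATPases and a set of non-ATPase subunits, while the caps made by Psme1 with Psme2, by Psme3 and by Psme4 do not need ubiquitin. In cells exposed to interferon gamma, Psmb8, Psmb9 and Psmb10 replace the catalytic subunits Psmb5, Psmb6 and Psmb7 to form the immunoproteasome, which cuts peptides for display on MHC class I molecules, and Psme1 and Psme2 are induced with them. Dedicated chaperones assemble core and cap, and the transcription factor Nfe2l1 raises most subunit genes together when proteasome activity is short.

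The promoters of Psme1, Psmb8 and Psmb9 are shown first, because interferon acts through short DNA motifs near the start of genes. RefSeq windows of 300 bases, 250 before to 50 after the annotated start in build GRCm38.p6, were found for 41 of the 49 genes. Psme1 lies on chromosome 14 (window chr14:55578244-55578543, plus strand), Psmb8 on chromosome 17 (chr17:34197945-34198244, plus strand) and Psmb9 on chromosome 17 (chr17:34187281-34187580, minus strand). Capitals mark matches, on either strand, to the interferon-stimulated response element core (GAAA, any 2 bases, GAAA) in Psme1 and to the gamma-activated site TTCNNNGAA in Psmb8. Psmb9 has no capitals because neither motif occurs in its window. Neither occurs in the window of Psmb10, which is not shown.
Psme1: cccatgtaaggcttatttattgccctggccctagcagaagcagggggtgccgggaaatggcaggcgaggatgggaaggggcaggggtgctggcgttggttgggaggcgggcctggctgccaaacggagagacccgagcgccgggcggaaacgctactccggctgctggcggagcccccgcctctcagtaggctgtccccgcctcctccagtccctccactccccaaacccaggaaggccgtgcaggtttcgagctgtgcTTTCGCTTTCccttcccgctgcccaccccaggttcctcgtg
Psmb8: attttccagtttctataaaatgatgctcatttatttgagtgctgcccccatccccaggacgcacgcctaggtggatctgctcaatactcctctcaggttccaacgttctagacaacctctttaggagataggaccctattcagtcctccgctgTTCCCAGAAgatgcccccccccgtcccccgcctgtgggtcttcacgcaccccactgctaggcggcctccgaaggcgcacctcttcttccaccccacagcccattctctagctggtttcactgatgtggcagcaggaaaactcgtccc
Psmb9: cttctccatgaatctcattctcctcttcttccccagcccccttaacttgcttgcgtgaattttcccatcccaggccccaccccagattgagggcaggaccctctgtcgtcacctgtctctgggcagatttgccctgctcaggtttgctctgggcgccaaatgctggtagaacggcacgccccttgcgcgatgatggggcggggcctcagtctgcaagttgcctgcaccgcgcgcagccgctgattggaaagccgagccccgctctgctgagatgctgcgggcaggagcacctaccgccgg

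The response element match in Psme1 began at base 10 counted from the annotated start, and the gamma-activated site in Psmb8 began 97 bases before it. The response element core was present at 5 of the 41 genes, or 12.2%, against 3.43% of all 32817 RefSeq windows. Here and below the members are counted by gene and the background by window, so the shares are not strictly alike. Those 5 were Psmb3, Psmd4, Psmd9, Psme1 and Psmg4. The gamma-activated site was present at 3 of the 41 genes (Psmb8, Psmd2 and Psmg1), or 7.32%, against 8.29% of all windows. The antioxidant response element core TGACNNNGC stood at 6 of the 41 genes, or 14.6%, against 12.4% of all windows, and CCAAT stood at 16, or 39.0%, against 37.4%. A match shows only that these letters occur in the window. In the genome Psmb9 and Psmb8 flank Tap1, a peptide transporter gene, with 225 bases between Psmb9 and Tap1 and 969 bases between Tap1 and Psmb8.

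Signals were MAS5 intensities on a linear scale, already brought to a common array mean of about 500 (trimmed means 500.003 to 500.004), and differences below are on the scale log2(signal + 16), which understates the change of dim genes. The sorts held their labels: all 8 basal markers, such as Krt5 and Trp63, were lower in luminal than in basal cells in both castrated and intact mice (list medians -5.74 and -5.94), and 4 of 6 luminal markers were higher, although Foxa1 was lower. Pbsn, an androgen-dependent secretory gene, fell after castration in both cell types, with differences of -3.57 in luminal and -7.12 in basal cells. Correlations between arrays of 1 group were 0.863 to 0.967. The ratio of 3′ to 5′ control signal was 4.18 to 8.70 for Gapdh and 0.781 to 1.11 for Actb.

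Few proteasome genes passed the test after castration. In castrated against intact luminal cells, 1 of the 47 tested genes, Psme1, changed and was higher, while 5.86% of all tested genes changed, 2.9% higher and 2.96% lower. In castrated against intact basal cells 2 of the 47, Psma6 and Psmd4, changed and were higher, while 2.62% of all genes changed, 1.12% higher and 1.5% lower. Luminal and basal cells of castrated mice differed at 7 of the 47, all higher in luminal cells, beside 18.4% of all genes, 11.2% higher and 7.22% lower. In intact mice they differed at 3 of the 47, all higher in luminal cells, beside 19.5% of all genes, 11% higher and 8.45% lower. By the same limma fit no proteasome gene passed the test of whether castration acted differently in the 2 cell types. Of all genes 1.15% passed it, 0.676% higher and 0.471% lower. At an unadjusted p under 0.05 in this test there were 4 of the 47, beside 1859 of all 14645 genes. For castration limma's unadjusted p was under 0.05 at 6 of the 47 in luminal and 16 in basal cells. Among all 14645 genes it was at 2821 and 2601. Over the 5 comparisons 11 of the 47 genes passed at least once, with 13 calls in all and none of them a lower level. The array titles give replicate numbers, and these were taken as the sets of animals. When all arrays of 1 such set were left out, only the Psmb9 call held in all 3 fits. The luminal Psme1 call held in 2, and the other 11 calls held in 1 or none. The counts of calls lie below the background share in luminal cells after castration and in both comparisons of cell types. They lie above it in basal cells after castration, where the 2 calls are few. Of higher calls alone, the 7 of 47 between cell types in castrated mice are a slightly larger share than the 11.2% of all genes. The number of calls in that comparison was 1 to 9 when arrays or sets were left out.

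The set's median differences were small. After castration the median difference over the 47 genes was 0.16 in luminal cells, with 32 above 0, against -0.09 over all 14645 genes tested. In basal cells it was 0.04, with 28 above 0, against -0.11 over all genes. The luminal minus basal median was 0.43 in castrated mice, with 38 above 0, against 0.08 over all genes, and it was 0.38 in intact mice, with 37 above 0, against 0.07 over all genes. Replicate arrays of castrated luminal cells were the closest for these genes, as for all genes: the members' median SD of log2 signal was 0.17, compared with 0.34 in intact luminal cells, 0.40 in castrated basal cells and 0.39 in intact basal cells. Over all genes the median SDs were 0.32 in castrated luminal, 0.58 in intact luminal, 0.61 in castrated basal and 0.61 in intact basal cells.

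**Figure D1:**
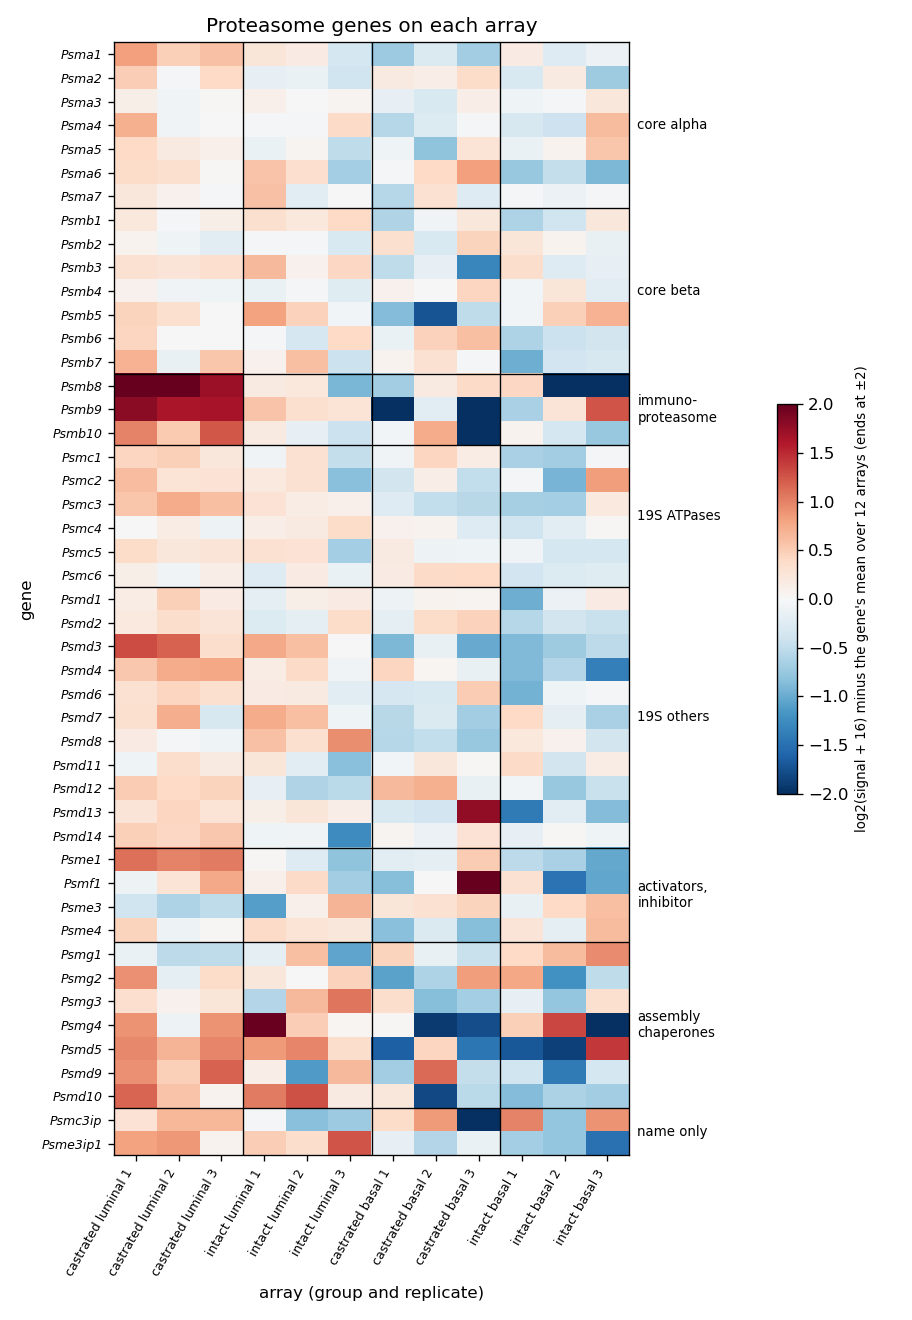
Deviation of each of the 47 tested genes (rows, ordered by part of the proteasome) from its own mean over the 12 arrays (columns, castrated luminal, intact luminal, castrated basal and intact basal, 3 arrays each), in log2(signal + 16) with the colour scale ending at ±2. Psmb8, Psmb9 and Psme1 are highest on the 3 castrated luminal arrays, and Psmb10 is high on those and on castrated basal replicate 2, while most other subunit rows stay near their mean.

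Psme1, the alpha subunit of the interferon-inducible PA28 cap, was the 1 proteasome gene called higher in luminal cells after castration. Its signal was 10475, 9700.3 and 10068 in castrated luminal cells, against 4941, 4059.6 and 2800.2 in intact luminal cells. It was 4227, 4255 and 6938 in castrated basal cells, against 3407, 3094 and 2387 in intact basal cells. The 3 castrated luminal arrays stood above all 9 others, and the castrated basal arrays also stood above the intact basal ones without overlap. The luminal difference was 1.39 ± 0.26 (SE, adjusted p = 0.00311), or 2.62-fold, and the basal difference was 0.77 ± 0.26 (SE, adjusted p = 0.123), which did not pass. Psme1 was also higher in luminal than in basal cells of castrated mice, by 1.01 ± 0.26 (SE, adjusted p = 0.0106), and the difference in intact mice was 0.38 ± 0.26 (SE, adjusted p = 0.334). The castrated call was lost without set 1 (adjusted p = 0.152), without set 2 (adjusted p = 0.147) and without an intensity trend (adjusted p = 0.0684). The test of unequal castration effects gave 0.62 ± 0.36 (SE, adjusted p = 0.504), with a 95% interval of -0.14 to 1.39. The luminal call held when any single array was left out, and was lost when all 4 arrays of set 2 were left out (1.46, adjusted p = 0.0782).

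The other cap genes did not pass in any of the 5 comparisons. Psme3, the nuclear PA28 gamma, had signals of 7519, 6397 and 6959 in castrated luminal cells, against 4584, 10645 and 15884 in intact luminal cells, and of 11635, 12134 and 13438 in castrated basal cells, against 8859, 13062 and 14947 in intact basal cells. The intact luminal arrays spread so widely that they enclosed both castrated groups. Psme3 had a difference of -0.40 ± 0.32 (SE, adjusted p = 0.537) after castration in luminal cells and of 0.04 ± 0.32 (SE, adjusted p = 0.964) in basal cells. Without intact luminal replicate 1 the luminal difference was -0.90 and passed (adjusted p = 0.0348). A dimmer Psme3 probe set, above the filter on all 12 arrays, gave 0.13 for luminal castration with every array kept. Castrated luminal arrays all lay below castrated basal arrays, at -0.83 ± 0.32 (SE, adjusted p = 0.0801), and with the animal set as a replicate block this difference passed (adjusted p = 0.047). It also passed in a fit to these groups alone (adjusted p = 0.00249) and without intact luminal replicate 1 or 3 (adjusted p = 0.0109 and 0.0293). In intact mice the difference was -0.39 ± 0.32 (SE, adjusted p = 0.449), and the interaction was -0.45 ± 0.45 (SE, adjusted p = 0.74).

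Psme4, which encodes the PA200 cap, had a difference after castration of -0.17 ± 0.32 (SE, adjusted p = 0.831) in luminal cells and of -0.89 ± 0.32 (SE, adjusted p = 0.154) in basal cells. In basal cells its signals were 774, 1139.9 and 763 after castration, against 1663, 1216 and 2167 in intact mice, with no overlap. Luminal minus basal it was 0.78 ± 0.32 (SE, adjusted p = 0.105) in castrated mice and 0.06 ± 0.32 (SE, adjusted p = 0.926) in intact mice, and its interaction was 0.72 ± 0.45 (SE, adjusted p = 0.548). Psmf1, the inhibitor PI31, was dim and uneven, with castrated basal signals of 156, 292 and 1579, and the lowest of its 5 adjusted p-values was 0.388.

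The 3 immunoproteasome subunits were each higher on every castrated luminal array than on every intact luminal array, though none of the 3 passed. Psmb8, which takes the place of Psmb5, had signals of 2526, 2581 and 2073 in castrated luminal cells, against 714, 723 and 324 in intact luminal cells. Psmb9, which takes the place of Psmb6, had 1472, 1306 and 1315 in castrated luminal cells, against 617, 516 and 495 in intact luminal cells. Psmb10, which takes the place of Psmb7, had 1852, 1336 and 2210.2 in castrated luminal cells, against 1046, 823 and 680.3 in intact luminal cells. The groups did not overlap for any of the 3, a separation in this direction that 14.9% of all tested genes also showed. The differences were 2.08 ± 0.66 (SE, adjusted p = 0.0779) for Psmb8, 1.31 ± 0.77 (SE, adjusted p = 0.382) for Psmb9 and 1.06 ± 0.53 (SE, adjusted p = 0.295) for Psmb10. In all, 14 of the 47 genes separated upwards in this way and 2, Psmb1 and Psmd8, downwards, where 16.8% of all genes did. A dimmer Psmb8 probe set, above the filter on 6 arrays, gave -0.34 in luminal and 0.35 in basal cells after castration. Luminal minus basal, that probe set gave -1.23 in castrated and -0.54 in intact mice.

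For Psmb8 and Psmb9 the luminal call differed between the fit to all arrays and a fit to the luminal arrays alone. In the fit to all arrays the basal arrays share the estimate of spread. Basal signals were scattered: Psmb8 had 379, 714 and 821 in castrated basal cells, against 835, 84.6 and 76.9 in intact basal cells. Psmb9 had 65.5, 347 and 2.36 in castrated basal cells, against 254, 493 and 1004 in intact basal cells, with 1 castrated array far below the 40th percentile of its signals. Psmb10 had 891, 1547 and 215 in castrated basal cells, against 973, 722 and 540.4 in intact basal cells. The highest SD of log2 signal among the 3 was 0.37 in castrated luminal cells and 0.64 in intact luminal cells, but 2.15 in castrated basal cells and 1.81 in intact basal cells. A fit to the luminal arrays alone called Psmb8 (adjusted p = 0.0054) and Psmb9 (adjusted p = 0.0168) but not Psmb10 (adjusted p = 0.0523). Leaving out intact basal replicate 1, the array on which Psmb8 was high, also took Psmb8 past the threshold in luminal cells (adjusted p = 0.00986). With all arrays kept, Psmb8 passed there with median centring (adjusted p = 0.0234) and not with quantile normalization (adjusted p = 0.0878). Leaving out any 1 basal array did not take Psmb9 past the threshold, the lowest adjusted p being 0.181, without castrated basal replicate 3. The cause of these shifts was not tested.

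In basal cells the 3 immunoproteasome subunits had unlike values after castration. Psmb8 had a difference of 1.64 ± 0.66 (SE, adjusted p = 0.203), Psmb9 of -2.67 ± 0.77 (SE, adjusted p = 0.0718) and Psmb10 of -0.10 ± 0.53 (SE, adjusted p = 0.948), and none passed. Single arrays decided these values: Psmb8 became 2.69 (adjusted p = 0.0117) without intact basal replicate 1, and Psmb9 became -3.75 (adjusted p = 0.0085) without castrated basal replicate 2 but -1.59 (adjusted p = 0.211) without castrated basal replicate 3. The interaction was 0.44 ± 0.94 (SE, adjusted p = 0.898) for Psmb8, 3.98 ± 1.09 (SE, adjusted p = 0.099) for Psmb9 and 1.16 ± 0.76 (SE, adjusted p = 0.562) for Psmb10. That of Psmb9 passed only when castrated basal replicate 2 was left out (5.06, adjusted p = 0.0128), among the 12 single arrays left out.

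Between cell types, Psmb9 in castrated mice showed the largest difference of the 47 genes in any of the 5 comparisons. Luminal cells of castrated mice exceeded basal cells by 4.08 ± 0.77 (SE, adjusted p = 0.00117). This difference held when any single array was left out and was 3.00 (adjusted p = 0.00314) without castrated basal replicate 3, where its signal was 2.36. Psmb8 had a difference of 1.95 ± 0.66 (SE, adjusted p = 0.0504), just short of the threshold and without overlap, and Psmb10 one of 1.37 ± 0.53 (SE, adjusted p = 0.0872), with overlap. In intact mice the luminal minus basal differences were 1.51 ± 0.66 (SE, adjusted p = 0.127) for Psmb8, 0.10 ± 0.77 (SE, adjusted p = 0.954) for Psmb9 and 0.20 ± 0.53 (SE, adjusted p = 0.843) for Psmb10. The comparison of cell types in castrated mice and that of castrated with intact luminal cells both use the castrated luminal arrays.

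**Figure D2:**
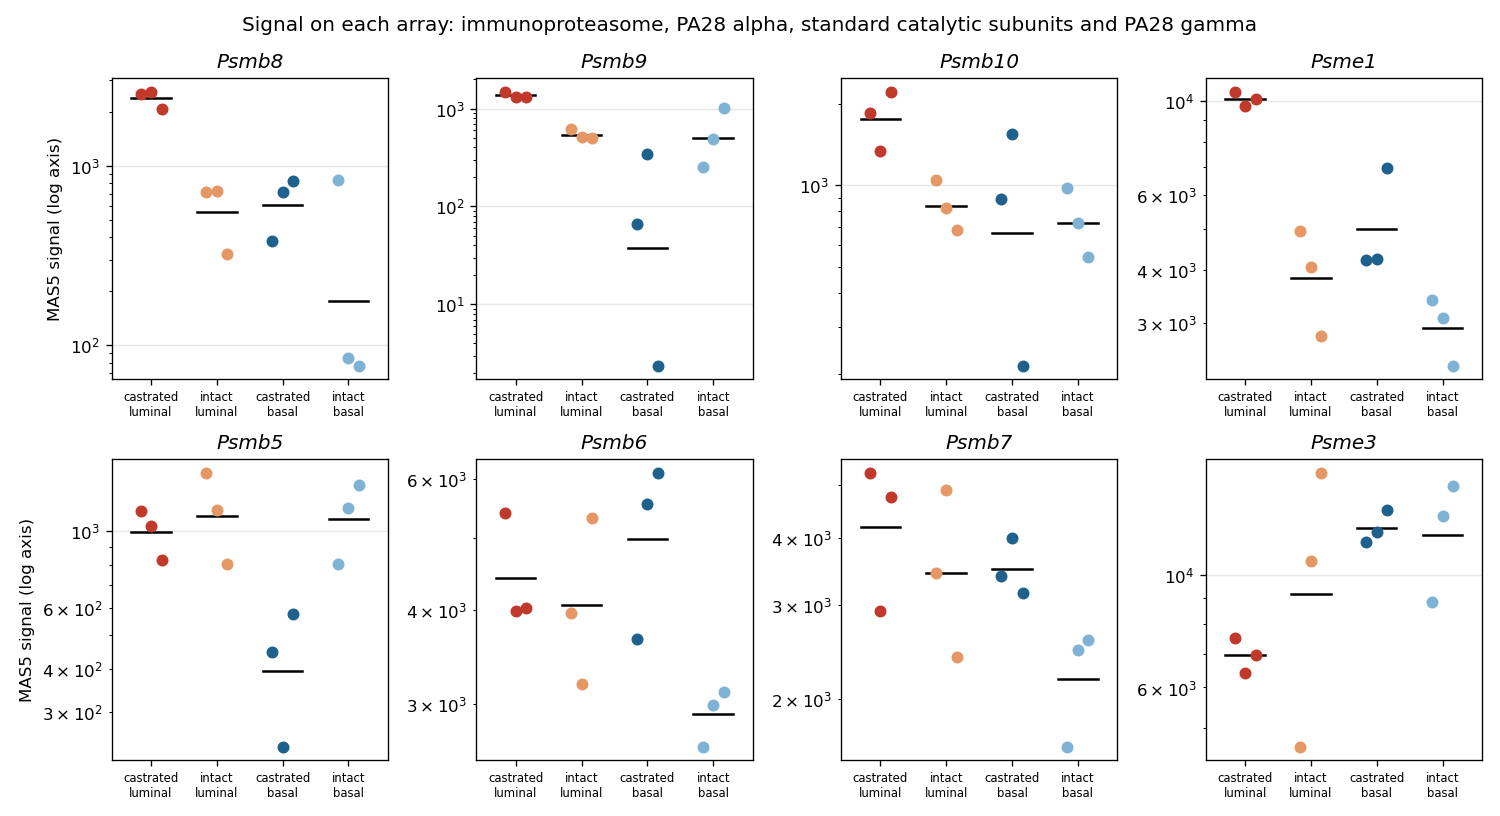
Signal (log axis, scaled for each gene) on each of the 12 arrays for the immunoproteasome subunits, their standard counterparts, Psme1 and Psme3, in castrated luminal, intact luminal, castrated basal and intact basal cells, 3 arrays each, with a line at the geometric mean. The castrated luminal points of Psmb8, Psmb9, Psmb10 and Psme1 lie above the intact luminal ones without overlap, whereas those of Psmb5, Psmb6 and Psmb7 overlap.

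None of the 3 standard catalytic subunits passed in luminal cells after castration. Psmb5, the chymotrypsin-like subunit, had signals of 1143, 1036 and 825 in castrated luminal cells, against 1468, 1150.0 and 802 in intact luminal cells, a difference of -0.16 ± 0.40 (SE, adjusted p = 0.878) with a 95% interval of -1.01 to 0.70. Psmb6, the caspase-like subunit, had a difference of 0.12 ± 0.26 (SE, adjusted p = 0.852) with an interval of -0.43 to 0.67. Psmb7, the trypsin-like subunit, had a difference of 0.28 ± 0.31 (SE, adjusted p = 0.673) with an interval of -0.36 to 0.93. The groups overlapped for all 3, and the intervals were wide.

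In basal cells the 3 standard subunits had unlike values. Psmb5 had 449, 239 and 577 in castrated basal cells, against 802, 1167 and 1360.2 in intact basal cells, without overlap, and the difference of -1.41 ± 0.40 (SE, adjusted p = 0.0696) did not pass. Psmb6 had 3663, 5549 and 6114 in castrated basal cells, against 2625, 2988 and 3113 in intact basal cells, also without overlap but in the other direction, at 0.78 ± 0.26 (SE, adjusted p = 0.12). Psmb7 had a difference of 0.67 ± 0.31 (SE, adjusted p = 0.257), again with all 3 castrated arrays above the intact ones. Psmb5 was higher in luminal than in basal cells of castrated mice, by 1.29 ± 0.40 (SE, adjusted p = 0.0344), and not of intact mice, at 0.03 ± 0.40 (SE, adjusted p = 0.975). Its call held in 7 of the 12 fits that left out 1 array. It was lost without castrated luminal replicate 1, 2 or 3 (adjusted p = 0.131, 0.105 and 0.0622), without castrated basal replicate 1 (adjusted p = 0.0505), without castrated basal replicate 2, where Psmb5 was lowest (0.94, adjusted p = 0.135), and with quantile normalization (adjusted p = 0.0758). Luminal minus basal, Psmb6 was -0.17 ± 0.26 (SE, adjusted p = 0.701) in castrated and 0.48 ± 0.26 (SE, adjusted p = 0.217) in intact mice, and Psmb7 was 0.26 ± 0.31 (SE, adjusted p = 0.613) in castrated and 0.65 ± 0.31 (SE, adjusted p = 0.157) in intact mice. Interactions were 1.26 ± 0.57 (SE, adjusted p = 0.371) for Psmb5, -0.66 ± 0.37 (SE, adjusted p = 0.483) for Psmb6 and -0.39 ± 0.43 (SE, adjusted p = 0.772) for Psmb7.

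Of the remaining beta subunits, which shape the inner rings, Psmb3 was higher in luminal cells of castrated mice. Its signals were 3318, 3223 and 3404 in castrated luminal cells, against 1899.9, 2401 and 1082 in castrated basal cells, a difference of 0.95 ± 0.30 (SE, adjusted p = 0.0363). All 3 luminal arrays exceeded all 3 basal arrays; in intact mice the difference was 0.40 ± 0.30 (SE, adjusted p = 0.396) and the groups overlapped. The Psmb3 call also held in 7 of the 12 fits and was lost without any 1 castrated luminal array or without castrated basal replicate 1 or 3, the highest adjusted p being 0.148. Psmb1 had the second lowest adjusted p among beta subunits both after castration in luminal cells, at -0.21 ± 0.28 (SE, adjusted p = 0.745), and between cell types in intact mice, at 0.58 ± 0.28 (SE, adjusted p = 0.177). Psmb2 and Psmb4 lay between -0.23 and 0.18 in the 4 pairwise comparisons. Over the 7 beta subunits the median castration difference was 0.04 in luminal cells and 0.12 in basal cells.

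Among the alpha subunits, which gate the core, Psma6 rose in basal cells after castration. Its signals were 9202, 12369.5 and 16686 in castrated basal cells, against 5539, 6784 and 5017 in intact basal cells, and every castrated array exceeded every intact one. The difference was 1.11 ± 0.28 (SE, adjusted p = 0.0444), and in luminal cells it was 0.16 ± 0.28 (SE, adjusted p = 0.824). The other Psma6 probe sets that were above the filter on all 12 arrays gave 0.32 and, for the dimmer one, -0.25 in basal cells, and the call held in 3 of the 12 fits that left out 1 array, those without intact luminal replicate 1 or 3 or castrated basal replicate 1; without any of the other 9 arrays it was lost. With the animal set as a replicate block it had adjusted p = 0.0531, and under that block no proteasome gene passed in basal cells after castration.

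Psma1 differed between the cell types in castrated mice. Its signals were 2136, 1674 and 1814 in castrated luminal cells, against 718, 985 and 738 in castrated basal cells, a difference of 1.20 ± 0.32 (SE, adjusted p = 0.0135) without overlap. In intact mice the signals were 1421, 1346 and 941 in luminal cells, against 1358, 1008 and 1107 in basal cells, which overlapped, with a difference of 0.08 ± 0.32 (SE, adjusted p = 0.898). After castration Psma1 had a difference of 0.61 ± 0.32 (SE, adjusted p = 0.312) in luminal cells and of -0.50 ± 0.32 (SE, adjusted p = 0.437) in basal cells, and its interaction of 1.11 ± 0.45 (SE, adjusted p = 0.3) did not pass. A dimmer Psma1 probe set, above the filter on 10 arrays, gave -0.30 in luminal and -1.56 in basal cells after castration. The call between cell types was lost without castrated luminal replicate 1 (adjusted p = 0.0771) and with the mean of the gene's probe sets.

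The other alpha subunits passed no comparison. Psma2 came nearest after castration, with 0.51 ± 0.23 (SE, adjusted p = 0.226) in luminal cells, where groups did not overlap, and 0.50 ± 0.23 (SE, adjusted p = 0.263) in basal cells. The difference between cell types was 0.50 ± 0.33 (SE, adjusted p = 0.336) for Psma4 in castrated mice, and for Psma5 -0.36 ± 0.31 (SE, adjusted p = 0.462) in intact mice. Psma6 had a difference of 0.79 ± 0.28 (SE, adjusted p = 0.0575) between the cell types in intact mice, with an interaction of -0.95 ± 0.40 (SE, adjusted p = 0.318). Psma3 and Psma7 lay between -0.15 and 0.27 in the 4 pairwise comparisons, and the median of the 7 alpha subunits after castration was 0.16 in luminal cells and -0.15 in basal cells.

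The 6 ATPases of the 19S cap, which unfold substrates and thread them into the core, gave 1 call. Psmc3 was higher in luminal cells of castrated mice, at 3507, 4026 and 3647, against 2003, 1705 and 1619 in castrated basal cells. This difference was 1.07 ± 0.28 (SE, adjusted p = 0.0117) without overlap, compared with 0.57 ± 0.28 (SE, adjusted p = 0.173) in intact mice, and it was lost without castrated luminal replicate 2 (adjusted p = 0.0573). After castration Psmc3 had a difference of 0.45 ± 0.28 (SE, adjusted p = 0.406) in luminal cells, where all castrated arrays exceeded the intact ones, and Psmc1 one of 0.46 ± 0.25 (SE, adjusted p = 0.341). In basal cells the lowest adjusted p-values belonged to Psmc6, at 0.62 ± 0.20 (SE, adjusted p = 0.111), and Psmc1, at 0.63 ± 0.25 (SE, adjusted p = 0.202). The difference between cell types was 0.63 ± 0.38 (SE, adjusted p = 0.286) for Psmc2 in castrated mice and for Psmc4 0.43 ± 0.26 (SE, adjusted p = 0.282) in intact mice. Interactions were at most 0.70 ± 0.54 (SE, adjusted p = 0.645), for Psmc2, and at least -0.49 ± 0.29 (SE, adjusted p = 0.505), for Psmc6. Psmc5 ranged over 0.23 to 0.31 in the 4 pairwise comparisons.

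Of the 11 other 19S subunits, Psmd4, the ubiquitin receptor Rpn10, passed in 2 comparisons. Its signals were 4056, 4679.5 and 4786 in castrated luminal cells, against 3099, 3659 and 2657 in intact luminal cells, and 3784, 2889 and 2529.8 in castrated basal cells, against 1509.5, 1869 and 1073 in intact basal cells. Intact basal arrays were below all 9 others. The basal castration difference was 1.06 ± 0.27 (SE, adjusted p = 0.0466), which passed in 2 of the 12 fits that left out 1 array (without intact luminal replicate 3 or intact basal replicate 2, and not without any of the other 10) and had adjusted p = 0.0531 with the replicate block. In intact mice luminal cells exceeded basal cells by 1.10 ± 0.27 (SE, adjusted p = 0.00827), a call that held in all 12 fits but was lost without set 1 (adjusted p = 0.0869) or set 2 (adjusted p = 0.0701), while in castrated mice the difference was 0.57 ± 0.27 (SE, adjusted p = 0.164). After castration in luminal cells it was 0.53 ± 0.27 (SE, adjusted p = 0.302). Its 2 dimmer probe sets gave 0.42 and 1.02 for the basal castration difference and 0.57 and 0.96 for luminal minus basal in intact mice.

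Psmd3, a scaffold subunit of the 19S lid, was higher in luminal cells of castrated mice. Its signals were 1493, 1371 and 763 in castrated luminal cells, against 311, 532 and 286 in castrated basal cells, and 1017, 906 and 590.2 in intact luminal cells, against 314, 356 and 408 in intact basal cells. Luminal arrays exceeded basal arrays without overlap in both kinds of mice. The difference was 1.64 ± 0.42 (SE, adjusted p = 0.0113) in castrated mice, which passed, and 1.16 ± 0.42 (SE, adjusted p = 0.0649) in intact mice, which did not. The castrated call was lost when castrated luminal replicate 1 or 2 was left out, with a highest adjusted p of 0.075.

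Psmd14, the deubiquitinase that removes ubiquitin chains at the cap, and Psmd12, a lid subunit, came closest to the threshold in luminal cells after castration. Psmd14 had 4415, 4237 and 4650.2 in castrated luminal cells, against 2987, 3019 and 1321 in intact luminal cells, and had a difference of 0.95 ± 0.29 (SE, adjusted p = 0.0671). Psmd12 had 4376, 4042 and 4195 in castrated luminal cells, against 2754, 2009.9 and 2100.2 in intact luminal cells, and had a difference of 0.89 ± 0.28 (SE, adjusted p = 0.0751). Neither gene's groups overlapped, and Psmd12 passed in the fit to the luminal arrays alone. In basal cells Psmd12 had a difference of 0.82 ± 0.28 (SE, adjusted p = 0.128). Psmd14 had an interaction of 0.80 ± 0.41 (SE, adjusted p = 0.44), and Psmd13 one of -1.04 ± 0.68 (SE, adjusted p = 0.564).

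The remaining lid and base subunits passed nowhere. Psmd8 was alone among the 19S genes in having all castrated arrays below all intact arrays in both cell types, at -0.60 ± 0.27 (SE, adjusted p = 0.24) in luminal and -0.58 ± 0.27 (SE, adjusted p = 0.276) in basal cells, with 0.62 ± 0.27 (SE, adjusted p = 0.128) between cell types in castrated mice. Psmd13 had a single high castrated basal array among 888, 842 and 3789.7. Psmd1, Psmd2, Psmd6, Psmd7 and Psmd11 had castration differences between -0.37 and 0.67. The 7 probe sets of Psmd11 that passed the filter spanned -1.82 to 1.43 for the basal castration difference, so that gene's value rests on the choice of its brightest probe set.

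**Figure D3:**
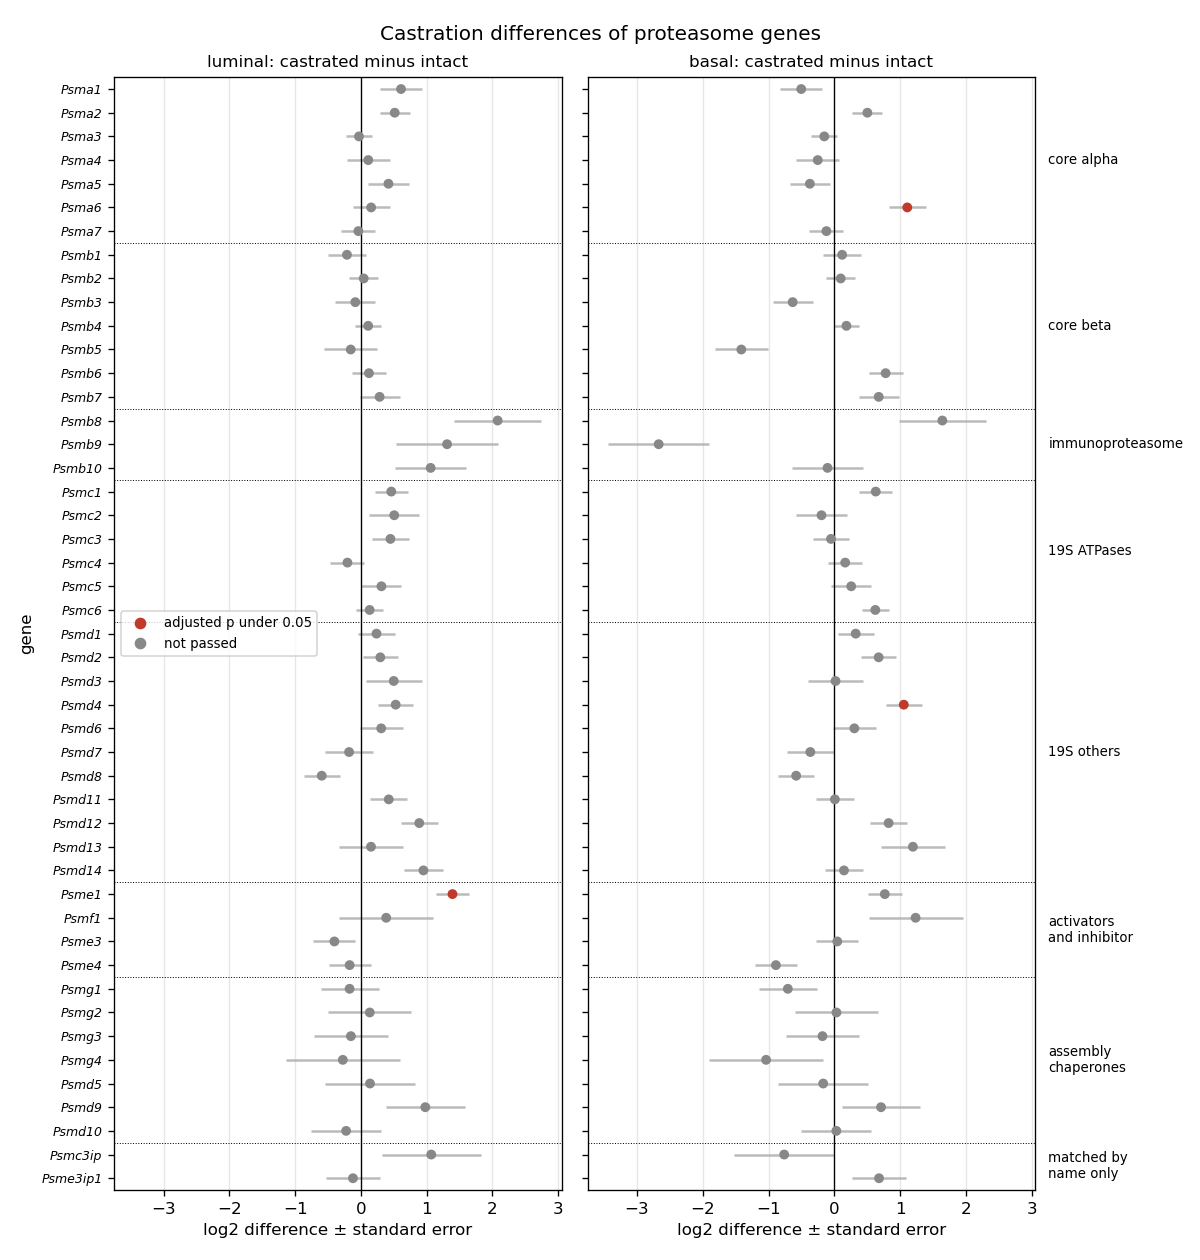
Castrated minus intact log2 difference with its standard error for each of the 47 genes, in luminal (left) and basal (right) cells, 3 arrays a group, with genes in rows by part of the proteasome. Red points passed at adjusted p under 0.05: Psme1 at 1.39 in luminal cells, and Psma6 at 1.11 and Psmd4 at 1.06 in basal cells.

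The assembly chaperones were dim and uneven, with median SDs of log2 signal of 0.36 in castrated luminal, 0.82 in intact luminal, 1.00 in castrated basal and 0.60 in intact basal cells. Psmd10, also called gankyrin, a chaperone of the 19S ATPase ring, was higher in luminal than in basal cells of intact mice. Its signals were 909, 1079 and 496 in intact luminal cells, against 232, 275 and 265 in intact basal cells, without overlap. This difference was 1.56 ± 0.53 (SE, adjusted p = 0.0482), and with the replicate block it did not pass (adjusted p = 0.0506). It held in 4 of the 12 fits that left out 1 array, those without intact luminal replicate 3 or any 1 castrated basal array, and without any of the other 8 arrays it was lost, with a highest adjusted p of 0.163. In castrated mice it was 1.30 ± 0.53 (SE, adjusted p = 0.1), and after castration in luminal cells it was -0.23 ± 0.53 (SE, adjusted p = 0.866).

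Psmd5 and Psmd9, also chaperones of that ring, did not pass. The difference between cell types was 1.76 ± 0.69 (SE, adjusted p = 0.0865) for Psmd5 in castrated mice and 1.45 ± 0.69 (SE, adjusted p = 0.159) in intact mice. Psmd9 had a difference after castration of 0.98 ± 0.60 (SE, adjusted p = 0.402) in luminal cells. The core chaperones Psmg1 to Psmg4 did not pass either: after castration in basal cells Psmg1 had a difference of -0.71 ± 0.44 (SE, adjusted p = 0.433) and Psmg4 of -1.04 ± 0.87 (SE, adjusted p = 0.58), with interactions of 0.53 ± 0.62 (SE, adjusted p = 0.786) and 0.76 ± 1.23 (SE, adjusted p = 0.854). Psmg2 and Psmg3 had castration differences of 0.13 and -0.15 in luminal cells and of 0.03 and -0.18 in basal cells.

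The 2 genes that match the symbol pattern by name only are partners of proteasome proteins and not subunits. Psme3ip1, which binds PA28 gamma, was higher in luminal than in basal cells of intact mice, with 915, 829 and 1568 in luminal cells, against 399, 374 and 219.7 in basal cells. The groups did not overlap and the difference was 1.68 ± 0.42 (SE, adjusted p = 0.00869). This call held in all 12 fits that left out 1 array and in none of the 3 that left out a set of animals (adjusted p = 0.0643, 0.0504 and 0.0537 without sets 1, 2 and 3). In castrated mice it was 0.88 ± 0.42 (SE, adjusted p = 0.164), after castration in basal cells it was 0.68 ± 0.42 (SE, adjusted p = 0.422), and its interaction was -0.80 ± 0.59 (SE, adjusted p = 0.625). Psmc3ip, a meiotic recombination factor, gave 1.07 ± 0.76 (SE, adjusted p = 0.481) in luminal and -0.76 ± 0.76 (SE, adjusted p = 0.657) in basal cells after castration. Luminal minus basal it was 0.93 ± 0.76 (SE, adjusted p = 0.442) in castrated mice and -0.90 ± 0.76 (SE, adjusted p = 0.456) in intact mice, with an interaction of 1.83 ± 1.07 (SE, adjusted p = 0.504). Without these genes, 2 of 45 members were called between cell types in intact mice.

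**Figure D4:**
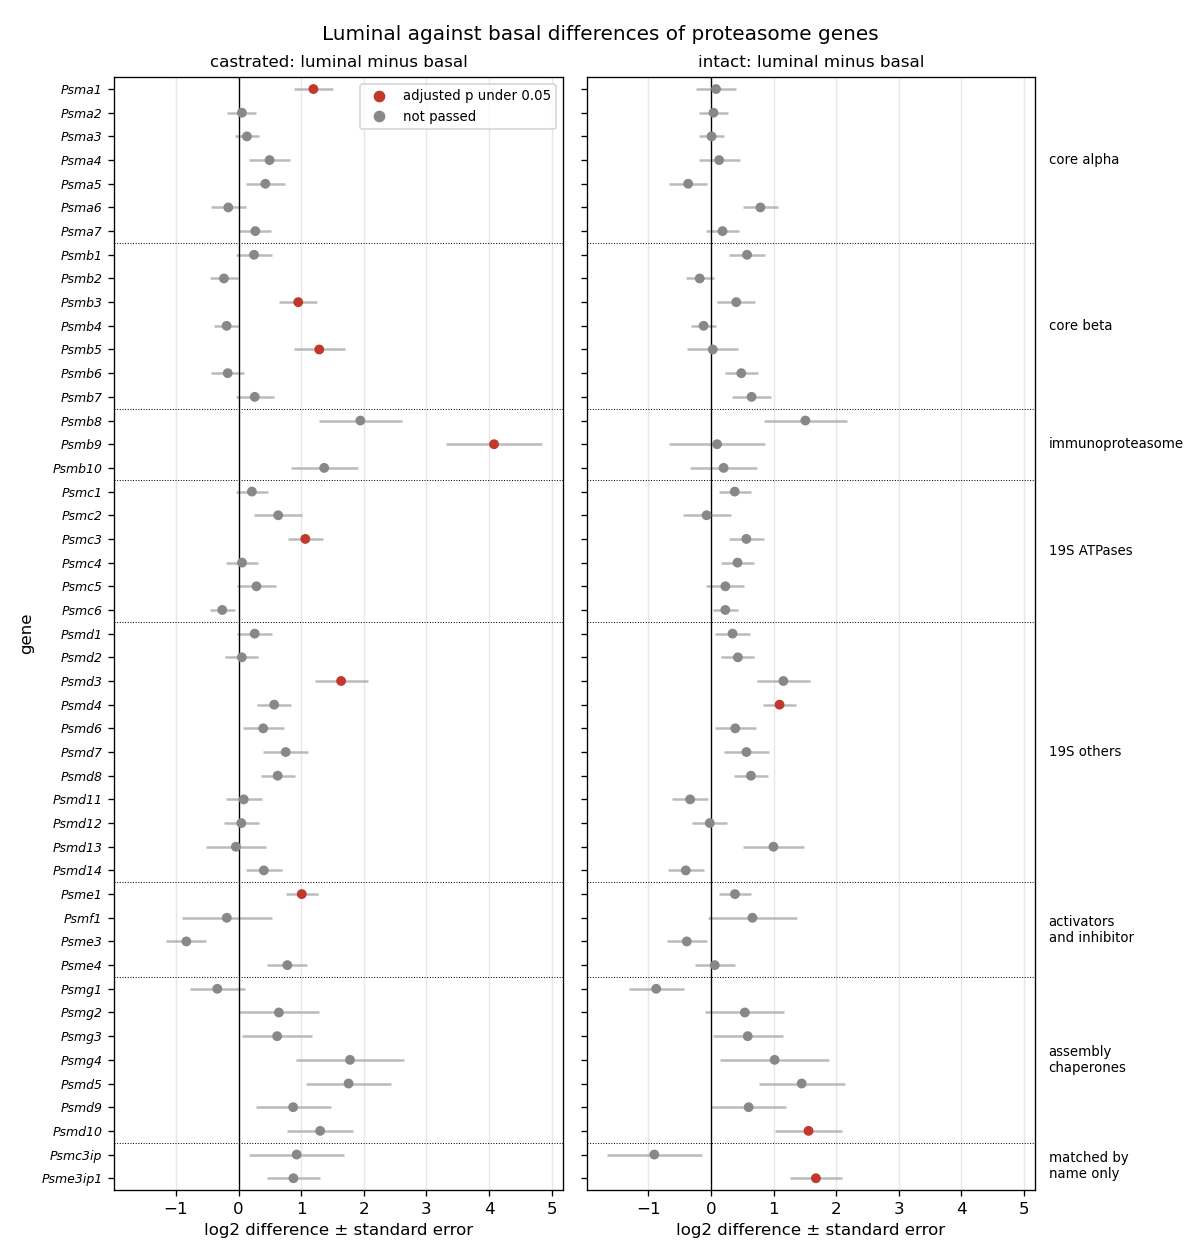
Luminal minus basal log2 difference with its standard error for each of the 47 genes, in castrated (left) and intact (right) mice, 3 arrays a group, with genes in rows by part of the proteasome. Red points passed at adjusted p under 0.05, 7 genes in castrated and 3 in intact mice; Psmb9 at 4.08 in castrated mice lies farthest to the right.

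Across all 47 genes, arrays separated without overlap in both directions. In each of the 4 pairwise comparisons a larger share of the 47 than of all genes lay higher on all arrays and a smaller share lay lower, beside set medians that were also above those of all genes. Between cell types in intact mice the share lying higher was close to that of all genes. The members also had smaller median SDs within groups than all genes, and these shares were not matched for spread or signal. In castrated basal against intact basal cells, 8 genes lay higher on all arrays and 4 lower, where 8.71% and 11.1% of all genes did so. For luminal against basal cells 17 lay higher and 2 lower in castrated mice (23.6% and 17.5% of all genes), and 9 lay higher and none lower in intact mice (18% and 14% of all genes). Psma1 was alone among the 47 in lying higher on all castrated luminal arrays than on intact luminal arrays while lying lower on all castrated basal arrays than on intact basal arrays.

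Class I antigen processing genes, which carry and display the peptides that proteasomes make, gave 1 call after castration. Of the 9 genes, B2m, the class I light chain, fell in luminal cells, beside 2.96% of all genes. Its difference was -1.13 ± 0.13 (SE, adjusted p = 5.23e-05). Tap1, which lies between Psmb9 and Psmb8, had -0.01 ± 0.44 (SE, adjusted p = 0.995) in luminal cells and -0.34 ± 0.44 (SE, adjusted p = 0.747) in basal cells, with overlap in both. Tap2 gave 0.85 (adjusted p = 0.607) in luminal cells. No gene of the 9 passed in basal cells with limma and 2 had an unadjusted p under 0.05, beside 2601 of all 14645 genes. Nlrc5, an activator of class I genes, came nearest at 2.04 ± 0.64 (SE, adjusted p = 0.1). In castrated mice Tapbp and H2-D1 were higher in luminal than in basal cells, by 0.84 (adjusted p = 0.0151) and 0.57 (adjusted p = 0.025), and in intact mice B2m was, by 1.14 (adjusted p = 9.51e-06). Over all genes 11.2% and 11% were higher in these comparisons. B2m was also the 1 gene of the list whose castration effect differed between cell types, at -0.79 ± 0.18 (SE, adjusted p = 0.0446).

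Of 14 tested interferon response genes, none passed in limma after castration in either cell type. In luminal cells the list median was 0.10, with 3 genes at an unadjusted p under 0.05, beside 2821 of all 14645 genes. Among the 3 were Cxcl10 at 0.81 ± 0.24 (SE, adjusted p = 0.0589) and Ifit3 at 2.80 ± 0.87 (SE, adjusted p = 0.0721). In basal cells the median was -0.60, with 3 genes at an unadjusted p under 0.05, beside 2601 of all 14645 genes. Irf1 was the nearest there, at -1.10 ± 0.35 (SE, adjusted p = 0.109). Between cell types in castrated mice Ifit3 and Irf8 were higher in luminal cells, by 3.91 (adjusted p = 0.00431) and 1.88 (adjusted p = 0.038), and Cxcl10 was lower, at -1.63 (adjusted p = 0.000137). In intact mice Irgm1 and Irf8 were higher, by 1.91 (adjusted p = 0.0278) and 1.84 (adjusted p = 0.0405), and Cxcl10, Socs1 and Gbp2 were lower, at -2.998 (adjusted p = 2.45e-07), -2.08 (adjusted p = 0.014) and -2.35 (adjusted p = 0.0385). Over all genes 11.2% were higher and 7.22% lower in castrated mice, and 11% and 8.45% in intact mice. The nearest interaction was that of Cxcl10, at 1.37 ± 0.34 (SE, adjusted p = 0.0668).

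Regulators of proteasome gene transcription gave 1 call among 10 genes after castration, a higher level in luminal cells, beside 2.9% of all genes. Nfe2l2, the oxidative stress factor, rose in castrated luminal cells, with signals of 3284, 3499 and 3367, against 2081, 1754 and 1256 in intact luminal cells. The groups did not overlap and the difference was 1.02 ± 0.23 (SE, adjusted p = 0.0117). Nfe2l1 did not pass in basal cells, at 0.88 ± 0.29 (SE, adjusted p = 0.117), though it was nearest among the 10 genes there. Luminal cells had less Nfe2l2 than basal cells, at -1.34 (adjusted p = 0.000477) in castrated and -1.99 (adjusted p = 1.09e-05) in intact mice, and likewise less Maff, at -1.13 (adjusted p = 5.92e-05) and -0.67 (adjusted p = 0.005), and less Cebpb, at -0.93 (adjusted p = 0.0401) and -1.18 (adjusted p = 0.0104). Ngly1, which processes the Nfe2l1 protein, was higher in luminal cells by 1.55 (adjusted p = 0.0429) in castrated and 1.97 (adjusted p = 0.0113) in intact mice, and Nfe2l1 was higher by 0.97 (adjusted p = 0.0257) in intact mice. The shares of all genes higher and lower were 11.2% and 7.22% in castrated and 11% and 8.45% in intact mice. The interaction nearest to passing was that of Maff, at -0.46 ± 0.22 (SE, adjusted p = 0.385).

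None of 14 tested proteasome partners with other names passed in limma after castration, with 3 at an unadjusted p under 0.05 in luminal and 2 in basal cells. Such a p was found for 2821 and 2601 of all 14645 genes. Ecpas, an adaptor of assembled proteasomes, came nearest in luminal cells at -0.93 ± 0.35 (SE, adjusted p = 0.139), and Ubqln1, a shuttle for ubiquitinated proteins, in basal cells at 0.75 ± 0.25 (SE, adjusted p = 0.124). Between cell types in castrated mice Akirin2, needed for nuclear import of proteasomes, was higher in luminal cells by 1.13 (adjusted p = 0.00796), and Pomp, the core maturation factor, by 0.99 (adjusted p = 0.0365). Over all genes 11.2% were higher in that comparison. In intact mice 5 of the 14 partners were higher in luminal cells, beside 11% of all genes. Among the 5 were Ubqln1 by 1.56 (adjusted p = 0.000319), Ecpas by 1.14 (adjusted p = 0.0281), Ubqln4 by 0.76 (adjusted p = 0.0328) and Zfand2a by 2.08 (adjusted p = 0.0393). Of the ubiquitin and E1 genes only Uba6 was tested, and it gave 0.04 (adjusted p = 0.969) in luminal and 0.05 (adjusted p = 0.972) in basal cells after castration.

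Some genes of endoplasmic reticulum-associated degradation, which delivers misfolded secretory proteins to the proteasome, passed after castration. In castrated luminal cells 3 of 13 fell, beside 2.96% of all genes: Derl3 at -2.95 ± 0.54 (SE, adjusted p = 0.00291), Herpud1 at -1.24 ± 0.24 (SE, adjusted p = 0.00494) and Ubxn4 at -0.74 ± 0.19 (SE, adjusted p = 0.0241). Herpud1 had signals of 2566, 2787 and 2137 in castrated luminal cells, against 6361, 5399.6 and 5869.6 in intact luminal cells, and 2321, 2408 and 2089 in castrated basal cells, against 904, 961 and 973 in intact basal cells. It fell in luminal and rose in basal cells, where the difference was 1.25 ± 0.24 (SE, adjusted p = 0.013), and the interaction passed at -2.48 ± 0.34 (SE, adjusted p = 0.00269). Derl3 also fell in basal cells, at -2.12 ± 0.54 (SE, adjusted p = 0.0465). Luminal cells exceeded basal cells at 4 of 13 genes in castrated mice, namely Derl2, Derl3, Edem1 and Sel1l, beside 11.2% of all genes, and at 8 of 13 in intact mice, beside 11% of all genes, among them Herpud1 by 2.61 (adjusted p = 1.26e-06) and Sel1l by 2.44 (adjusted p = 3.83e-05).

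Markers of other cells moved in both directions in castrated luminal cells, where Psme1 rose and where 2.9% of all genes rose and 2.96% fell. Of 8 basal markers 1, Krt17, rose by 1.89 ± 0.42 (SE, adjusted p = 0.011), with signals of 285, 369 and 314 in castrated luminal cells, against 42.4, 50.3 and 179 in intact luminal cells and at least 6097 in basal cells, and 1, Trp63, fell, with a difference of -1.92 ± 0.43 (SE, adjusted p = 0.0121). The summed signal of the basal list was 10559.9 to 12505 in castrated luminal cells, against 8035 to 12164 in intact luminal cells. In castrated basal cells none of the 8 basal markers passed in limma (1 at an unadjusted p under 0.05), and of 6 luminal markers 1 rose and 1 fell. Over all genes 1.12% rose and 1.5% fell there. Of 14 leukocyte markers none rose and 1, Cd52, fell, with a difference of -5.56 ± 0.77 (SE, adjusted p = 0.000287), and the summed signal of the list was 2665 to 3913 in castrated luminal cells, against 12519 to 14655 in intact luminal cells. Without Cd52 and Lcp1, which made up most of these sums, the other 12 markers summed to 387 to 535 in castrated luminal cells, against 594 to 1667 in intact luminal cells. Ptprc, the pan-leukocyte marker, had 9.22 to 19.6 in castrated luminal cells, against 32.9 to 57.1 in intact luminal cells. In castrated basal cells the list summed to 2279.8 to 3187, against 1869 to 3223 in intact basal cells, with Lyz2 higher by 2.40 (adjusted p = 0.0398) and Lcp1 lower at -1.80 (adjusted p = 0.026). Fibroblast markers fell at 6 of 9 genes in castrated luminal cells, beside 2.96% of all genes. Their sums were 754 to 978, against 7851 to 14242 in intact luminal cells. Fibroblast markers fell at 4 of 9 genes in castrated basal cells, beside 1.5% of all genes. Their sums were 23932 to 29467, against 40259 to 51343 in intact basal cells. None of 6 endothelial and 4 smooth muscle markers passed in limma after castration (2 and 1 at an unadjusted p under 0.05 in luminal cells, 2 and 2 in basal cells), the nearest being Pecam1 in luminal cells at -1.75 (adjusted p = 0.19) and Cnn1 in basal cells at -2.05 (adjusted p = 0.119). Among all 14645 genes 2821 in luminal and 2601 in basal cells had such an unadjusted p. The part of these cells in the proteasome values was not tested.

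The scale of the arrays bears on the direction of small differences. Centring each array on its median in place of the common mean moved the median castration difference of all genes to 0.29 in luminal cells and 0.23 in basal cells. The split of higher and lower calls became 1021 and 252 in luminal cells, against 424 and 434, and 511 and 115 in basal cells, against 164 and 220. The proteasome genes then had medians of 0.54 and 0.39, and 45 and 36 of the 47 lay above 0. Psmb5 in luminal cells and Psmb10 in basal cells, both below 0 as reported, then had castration differences of 0.22 and 0.24. The members' median stood 0.25 above that of all genes in luminal cells and 0.15 above it in basal cells, and with quantile normalization these gaps were 0.19 and 0.07.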

How the data were processed

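Per the labels' protocols, biotin-labelled product for hybridization came from RNA extracted by RNeasy Micro columns and a NuGEN Pico amplification. The intensity values deposited by the authors are MAS5 signals on a linear scale, per the submitters' processing notes. Which MAS5 version ran is not given in the sources used here. The 12 arrays number 3 a group, which limits the precision. Control probe sets (64 of 45101) and probe sets with several symbols (932) or none (9160) were left out, leaving 34945 with 1 symbol. The probe set of highest mean log2(signal + 16) stood for its gene, and genes above the 40th percentile on at least 3 arrays were tested. Group means were fitted with limma 3.58.1 in R 4.3.3 (lmFit, eBayes with intensity trend, 8 residual degrees of freedom), and p-values were Benjamini-Hochberg adjusted over 14645 genes with a threshold of 0.05. ± gives the standard error of a difference.

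Members and gene lists were chosen with earlier results of these data known. Every member was accounted for; statistics were given for members that passed, for Psmb5, Psmb6, Psmb7, Psmb8, Psmb9 and Psmb10 and the Psme genes, and for the 2 of lowest adjusted p in each part and comparison, and from each list for members that passed (at most 4 a comparison and direction) or else the nearest. The study's description pairs castrated and intact animals in 3 sets. Replicate numbers in the array titles were taken as sets 1 to 3, which the titles do not state. Deviations of same-numbered arrays correlated at -0.00723 to 0.0258. On simulated data with 200 of 14645 genes changed in castrated luminal cells, the fit recovered 4% of 2-fold and 24.4% of 4-fold changes, with 4.70% false calls. The changed genes were drawn from all genes, whose median SDs were larger than those of the members. These shares therefore do not give the recovery for the proteasome genes. Alternatives were quantile normalization, median centring, other constants before the log, other filters, no intensity trend, array weights, the mean of probe sets, fits to the compared groups alone, replicate blocks and leaving out arrays or sets. Promoters were searched as RefSeq lists them.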

Additional observations from a re-analysis of the deposited data

Results flagged for a closer look

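Psma1, an alpha subunit of the core, stood out because the arrays of its brightest probe set separated in opposite directions in the 2 cell types: all 3 castrated luminal arrays lay above all 3 intact luminal arrays, while all 3 castrated basal arrays lay below all 3 intact basal arrays. The castration difference in luminal cells exceeded that in basal cells by 1.11, and limma's test of this interaction gave an adjusted p of 0.3, so the difference between cell types did not pass. The gene's other usable probe set, which was dimmer, gave -0.30 in luminal and -1.56 in basal cells, below 0 in both. With median centring the brightest probe set gave 0.99 in luminal and -0.16 in basal cells.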

How the results depend on the processing

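Counts of called proteasome genes were small and moved with the settings, and no called direction reversed; the count as reported stands in parentheses. For castrated against intact luminal cells (1) they were 6 with median centring, 2 with 64 added before the log, 4 with array weights, 3 with the mean of probe sets and 4 in a fit to these groups alone. For castrated against intact basal cells (2) they were 6 with median centring, 1 without a filter, 1 with the mean of probe sets, and 0 with quantile normalization, 1 added before the log, no intensity trend, array weights, a fit to these groups alone, or the animal set as a fixed replicate block. For luminal against basal cells in castrated mice (7) they were 4 without intensity trend and 12 with array weights, and in intact mice (3) 6 with array weights and 6 with the mean of probe sets. Leaving out arrays gave 0 to 3, 0 to 3, 1 to 9 and 0 to 8 in these comparisons, in that order, and 0 to 1 for the interaction. The fixed replicate block gave 1, 0, 8, 2 and 0 calls, and a random block over animals gave 1, 2, 8, 3 and 0 at a consensus correlation of 0.0125; the fixed block lost Psma6, Psmd4 and Psmd10, added Psme3, and the random one added Psmb8, with no other call changed. The cause of these shifts was not tested. Genes called over all settings numbered 208 to 1945, 22 to 630, 1190 to 3920, 1281 to 3134 and 0 to 246. Signal over background limits Psmb9 in basal cells and the dimmer assembly chaperones, above all Psmg4, which was above the filter on 9 arrays. Of 24 members with several usable probe sets, 9 had 1 sign across them for luminal castration and 15 for basal castration.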
